A study of Mus musculus with 16 samples.

Results

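Whole-lung RNA was sequenced in mice from 2 batches, and the 8 libraries of batch 2 were compared with the 8 libraries of batch 1, which together make up all 16 libraries of the series. Members were chosen by the batch named in each sample title. Each batch held the same 4 treatments with 2 libraries of each: control, bleomycin, bleomycin with the adenovirus Ad-GFP, and bleomycin with the adenovirus Ad-ATP12A. The last 3 groups all carried bleomycin and are called the bleomycin-exposed groups, with 6 libraries in each batch. Bleomycin, a DNA-cutting antibiotic, is given to mice to bring about scarring of the lung as in pulmonary fibrosis. Ad-GFP carries a fluorescent reporter and serves as the vector control. ATP12A, named in the second vector, is a pump subunit that exchanges protons for potassium outside the stomach. The labels give no strain, age, sex, dose or day of collection, and they do not say what a batch stands for. They also do not say that replicates were separate animals, so p-values measure the spread between libraries, which may be technical in groups whose libraries share a sex.

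Levels are given as TPM, an abundance scaled to transcript length and to a fixed library total. Read numbers cannot be had from them, and sequencing depth is unknown. Between 15537 and 16336 genes reached 1 TPM in a library. Of 53647 genes in the table, 17003 entered the tests. All 16 libraries held surfactant protein C, the defining transcript of alveolar type 2 cells, at 3965 to 29397 TPM. Secretoglobin Scgb1a1, the main product of airway club cells, stood apart in 3 libraries. It was at 128 TPM in bleomycin b2r2 (batch 2, replicate 2), 295 in Ad-GFP b1r1 and 441 in control b2r1. The other 13 libraries held at least 24870.1 TPM, and counts are also given without those 3. Values joined by a slash are those of replicates 1 and 2 of a group. Xist, the transcript of the inactive X chromosome in females, reached 10 TPM in 4 of 8 libraries of batch 1 and 2 of 8 of batch 2. These were control b1r1, Ad-GFP b1r1, both Ad-ATP12A libraries of batch 1, bleomycin b2r1 and Ad-ATP12A b2r2. Their Y-linked genes summed to at most 0.97 TPM, against at least 78.13 in the other libraries. Where only 1 replicate of a group was among them, the 2 libraries came from different animals. The part of sex in the batch differences was not tested beyond a term for Xist.

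Some background helps to read the differences. Bleomycin damages the alveolar epithelium and the capillaries, and the lung then recruits macrophages and fibroblasts that lay down collagen. Most cells of the lung also run a circadian clock, in which the proteins made by Arntl (BMAL1) and Clock switch on the Per genes, whose proteins in turn block them. Mitochondria carry a small genome of their own whose transcripts are abundant in every library.

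The bleomycin-exposed lungs of batch 2 held more transcripts of general capillary and lymphatic endothelium and pericytes than those of batch 1. They held fewer of the mitochondrial genome and of ciliated cells. In controls 1 gene passed the test (0.00588% of the genes tested), the predicted transcript Gm26740, and 1217 genes had an unadjusted p below 0.05. In bleomycin 1271 genes passed (7.48%), 1144 higher (6.73%) and 127 lower (0.747%) in batch 2. In Ad-GFP 1949 passed (11.5%), 1662 higher (9.77%) and 287 lower (1.69%). In Ad-ATP12A 2847 passed (16.7%), 1647 higher (9.69%) and 1200 lower (7.06%). Averaged over the 3 bleomycin-exposed groups, 6167 genes passed (36.3%), 4497 higher (26.4%) and 1670 lower (9.82%) in batch 2. After quantile normalization this average gave 3030 higher and 3253 lower, and after median-ratio scaling 3235 and 2916. Each comparison within a treatment, controls included, rests on 2 libraries against 2 and the average on 6 against 6. The count of the average is therefore not set beside those of single treatments. A difference between counts is also no test that the treatments differ. All tests were limma's moderated test on log2(TPM + 1), two-sided, with Benjamini-Hochberg adjusted p below 0.05.

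With all 4 treatments as terms, 3141 genes differed between the batches (18.5%), 2783 higher (16.4%) and 358 lower (2.11%) in batch 2. Of these, 2032 (64.7%) had the same sign of the batch difference in all 4 treatments, against 24% of all genes tested, a share that a choice by the average over treatments favours. Another 1080 had one sign in the 3 bleomycin-exposed groups and the opposite sign in controls. Of all genes tested 54.6% had one sign in those 3 groups and 24% in all 4. The pattern is thus common among all genes, and the 1080 are not read as a result. The count of 3141 genes depended on the libraries. Without the 3 libraries low in Scgb1a1 no gene passed in limma and 3819 had an unadjusted p below 0.05, against 5886 with all libraries. In that setting the average over the bleomycin-exposed groups still gave 4436 genes. With single libraries left out, the count over all treatments ran from 1602 genes without bleomycin b1r2 to 4943 without control b2r2. The share of higher genes among those that passed, 88.6%, was 52.2% after quantile normalization and 59.1% after median-ratio scaling. Quantile normalization moved the median batch difference of all genes from 0.09 to -0.01.

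The direction of the batch difference was compared across genes between treatments, which share no library. Between bleomycin and Ad-GFP Pearson's r over 17003 genes was 0.52, between Ad-GFP and Ad-ATP12A 0.58, and between bleomycin and Ad-ATP12A 0.24. Between controls and the bleomycin-exposed groups r was -0.20, -0.19 and -0.16. Genes of one library are not independent of each other, so these values describe the libraries and carry no test.

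Libraries of the 2 batches overlapped for nearly every gene when controls were included. In 99 genes (0.582%) all 8 libraries of batch 2 lay above all 8 of batch 1, and in 4 genes (0.0235%) they lay below: the small membrane protein gene Smim22, the predicted transcript 1810041H14Rik, Hspb11 and the cytosolic chaperone gene Hsp90aa1. These 4 are named because of their number, after their values were seen. Hsp90aa1 was at 390.1 to 532 (median 451) TPM in batch 1 and 279 to 375 (median 328) TPM in batch 2, a log2 difference of -0.49 (SE 0.09, adjusted p = 0.00849 in limma). Among the bleomycin-exposed libraries alone, batch 2 lay wholly above batch 1 in 2452 genes (14.4%) and wholly below in 487 (2.86%).

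The largest rise among genes with 1 sign in all treatments was in Lars2, the mitochondrial leucyl-tRNA synthetase. Lars2 was at 51.7 and 27.5 TPM in bleomycin, 39.6 and 25.8 in Ad-GFP and 31 and 22.5 in Ad-ATP12A of batch 1. In batch 2 the same groups held 178/238, 232/228 and 109/44.4 TPM. Controls were at 74.3 and 71.5 TPM in batch 1 and 94.9 and 143 in batch 2, so that both libraries of batch 2 lay above both of batch 1 in each of the 4 treatments. The log2 difference over all treatments was 1.82 (SE 0.29, adjusted p = 0.00677 in limma). A list of structural RNAs that includes Lars2, and whose summed TPM is mostly Lars2, took 0.0048% of TPM in batch 1 and 0.0169% in batch 2 (exact permutation test within treatments, two-sided, p = 0.00154, the smallest the test can give, adjusted over 5 library measures 0.0077). This is no result separate from Lars2. An identifier with no symbol in the annotation used moved the same way in the bleomycin-exposed groups, where it made up 0.232% to 0.975% of all TPM in batch 1 and 0.854% to 3.54% in batch 2, and the other way in controls, at 1.69% to 1.76% in batch 1 and 1.18% to 1.33% in batch 2.

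Ntrk2, the receptor of brain-derived neurotrophic factor, and Slit3, a secreted guidance protein of stromal cells, followed. Ntrk2 was at 4.56 to 9.71 (median 7.94) TPM in the bleomycin-exposed libraries of batch 1 and 14.2 to 46.6 (median 30.9) in those of batch 2, with no overlap. Its log2 difference was largest in Ad-ATP12A at 2.63 and smallest in controls at 0.44, where the batches overlapped. Slit3 was at 3.61 to 7.89 (median 5.63) and 15.6 to 27.2 (median 19.8) TPM, again without overlap, and differed by 1.30 on the log2 scale over all treatments (SE 0.21, adjusted p = 0.00729 in limma). Batch 1 controls, at 18.8 and 18.9 TPM, sat with batch 2. Adgrl4, an adhesion receptor of endothelial cells, was at 31 to 60.9 TPM in the bleomycin-exposed libraries of batch 1 and 100.4 to 159 in the other 10 libraries, without overlap. F2r, the thrombin receptor, was at 51.4 to 115 and 109.8 to 217 TPM in the same sets, which overlapped through the controls.

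Genes of general capillary endothelium were among those higher in batch 2 over the bleomycin-exposed groups. Of 19 tested markers of general capillary endothelium, 10 were higher and none lower in batch 2 over the bleomycin-exposed groups, with a median log2 difference of 0.44 against 0.11 for all genes tested. Their medians by treatment were 0.05 in control, 0.79 in bleomycin, 0.39 in Ad-GFP and 0.24 in Ad-ATP12A. Of the aerocytes, the other capillary cell type, 3 of 13 genes were higher (median 0.29). Of arterial and venous endothelium 5 of 17 were higher (median 0.33). The counts of these other lists are near the 26.4% of all genes tested that were higher. Calcrl, a receptor for adrenomedullin, was at 873 and 794 TPM in batch 1 controls and 198 and 165 in bleomycin, 138 and 174 in Ad-GFP and 104 and 305 in Ad-ATP12A. In batch 2 it was at 792 and 598 TPM in controls, 635 and 644 in bleomycin, 886 and 444 in Ad-GFP and 403 and 503 in Ad-ATP12A. Both libraries of batch 2 lay above both of batch 1 in each exposed group and below them in controls. Ptprb, the endothelial phosphatase that restrains the angiopoietin receptor, was at 34.4 to 71.8 (median 50.6) TPM in the bleomycin-exposed libraries of batch 1 and 99.5 to 169 (median 122) in those of batch 2 (log2 difference over these groups 1.30, SE 0.18, adjusted p = 0.000603 in limma). Tek, that receptor itself, differed by 0.96 (SE 0.20, adjusted p = 0.00485). In whole lung, fewer cells of a type and less RNA per cell cannot be told apart. Without the 3 libraries low in Scgb1a1 fewer of the 19 capillary markers passed the threshold, and their median was 0.50. That setting leaves only 1 library in some groups. Counts of list members over the bleomycin-exposed groups are therefore not given for it, and it is not read as a result about the lists.

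Lymphatic endothelium and pericytes, the contractile cells that wrap capillaries, moved in the same direction. In the lymphatic list 8 of 11 genes were higher in batch 2 over the bleomycin-exposed groups (median 0.55), among them Flt4, the receptor of lymphatic growth factors, at 6.99 to 9.87 TPM in batch 1 and 16.9 to 23.3 in batch 2, and the matrix protein gene Mmrn1 at 9.28 to 15.6 and 20.7 to 37 TPM. Neither overlapped between batches. In the pericyte list 7 of 12 were higher (median 0.56), among them Notch3, a signalling receptor of mural cells, at 10.3 to 14.5 TPM in batch 1 and 17.6 to 29.3 in batch 2, also without overlap. Of the markers of alveolar fibroblasts 7 of 15 were higher (median 0.51). Pdgfra, which defines these fibroblasts, was at 46.5/34, 21.2/38.5 and 19.4/35.5 TPM in the bleomycin, Ad-GFP and Ad-ATP12A libraries of batch 1 and 61.7/69.3, 70.2/88.3 and 90.8/95.8 in those of batch 2, against 79.5/75.9 and 86.4/70.3 in the controls of the 2 batches. Fewer genes of each of these 3 lists passed with the 3 libraries low in Scgb1a1 left out. Red blood cell genes were also higher over the bleomycin-exposed groups, 6 of 11 (median 0.72). The medians by treatment were -0.40 in control, 0.41 in bleomycin, 0.65 in Ad-GFP and 1.47 in Ad-ATP12A. They thus rose from bleomycin to Ad-ATP12A, while those of the capillary list fell from 0.79 to 0.24. The part of red blood cell genes in the vascular results was not tested.

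Matrix genes had their largest median batch difference in the Ad-ATP12A lungs. Over the bleomycin-exposed groups 8 of 19 collagen genes, 10 of 29 other matrix glycoprotein and crosslinking genes and 10 of 23 matrix protease and inhibitor genes were higher in batch 2, beside 26.4% of all genes tested. The count of glycoprotein and crosslinking genes is near that share. The median batch difference of the collagens was -0.05 in control, -0.12 in bleomycin, 0.61 in Ad-GFP and 1.36 in Ad-ATP12A. Fibrillar Col1a1 was at 666 and 502 TPM in bleomycin, 139 and 605 in Ad-GFP and 241 and 181 in Ad-ATP12A of batch 1, and at 243/572, 205/748 and 1191/669.5 TPM in batch 2. Col1a1 did not pass over the bleomycin-exposed groups (0.63, SE 0.41, adjusted p = 0.255 in limma), and its batches overlapped in bleomycin and Ad-GFP. The basement membrane collagen Col4a2 did, at 128 to 269.9 (median 205) TPM in batch 1 and 291 to 513 (median 447) in batch 2 (1.10, SE 0.19, adjusted p = 0.00134), without overlap. Adamts1, a protease that cuts matrix proteoglycans, was the steadiest of these: all 8 libraries of batch 2, at 60.2 to 99.8 TPM, lay above all 8 of batch 1, at 38.8 to 50.4 TPM, and the log2 difference was 0.60 in control, 0.69 in bleomycin, 0.76 in Ad-GFP and 1.12 in Ad-ATP12A (over all treatments 0.79, SE 0.09, adjusted p = 0.00306). Timp3, an inhibitor of such proteases, was likewise at 241 to 414 TPM in batch 1 and 438 to 603 in batch 2. As many collagens, but fewer glycoproteins and fewer proteases and inhibitors, passed as higher without the 3 libraries low in Scgb1a1.

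Genes of the TGF-beta response, the main fibrogenic signal, gave 8 of 16 higher over the bleomycin-exposed groups (median 0.32). Tgfbr2, the receptor that binds the ligand, was at 50.7 to 93.1 (median 76.6) TPM in batch 1 and 151 to 214 (median 195) in batch 2 (1.36, SE 0.15, adjusted p = 0.000223 in limma), with no overlap. Smad7, an inhibitor of the same pathway, was at 13.9 to 20.5 and 22.3 to 32.7 TPM. A receptor and an inhibitor of the pathway were thus both higher. Fewer of the 16 passed without the 3 libraries low in Scgb1a1.

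Counts of higher immune genes are read beside the 26.4% of all genes tested that were higher over the bleomycin-exposed groups. Of 21 complement genes 8 were higher and 1 lower over the bleomycin-exposed groups (median 0.54), among them Serping1, the inhibitor of C1, at 182 to 303 TPM in batch 1 and 329 to 513 in batch 2, without overlap. Of 20 genes induced by interferon gamma 9 were higher (median 0.52), among them Gbp5 (0.83, SE 0.24, adjusted p = 0.0188 in limma) and Ciita, the master regulator of MHC class II (0.62, SE 0.12, adjusted p = 0.00332). Of 23 T cell genes 9 were higher, and the list's median batch difference was 0.20 in control, 0.72 in bleomycin, 0.44 in Ad-GFP and -0.11 in Ad-ATP12A. The T cell receptor chain gene Cd3e was at 6.69 and 7.97 TPM in bleomycin, 7.11 and 5.41 in Ad-GFP and 12.5 and 12.5 in Ad-ATP12A of batch 1 and at 17/16.6, 8.69/15.6 and 15.4/15.5 TPM in batch 2. The batches were apart in each of these groups, and the gap was widest in bleomycin. Leaving out the 3 libraries low in Scgb1a1 lowered the count of higher genes in each of the complement, interferon gamma and T cell lists.

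**Figure D1:**
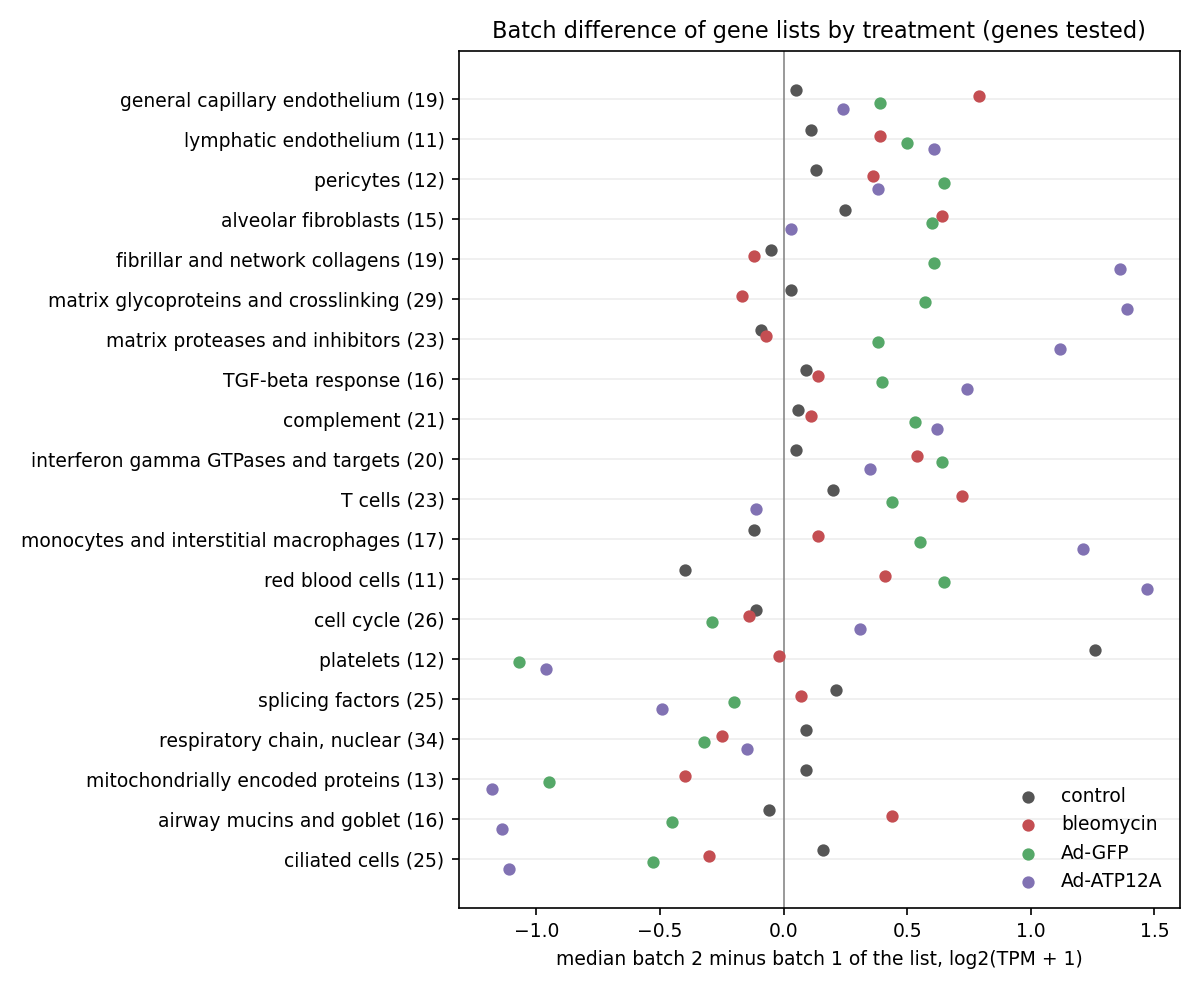
Median batch 2 minus batch 1 difference of 20 gene lists on the log2(TPM + 1) scale (x axis), with one point per treatment and the number of genes tested in brackets. Control medians lie close to 0 for most lists, platelets at 1.26 being the farthest, while mitochondrially encoded genes and ciliated cell genes reach -1.18 and -1.11 in Ad-ATP12A and collagens 1.36.

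The clearest fall was in the mitochondrial genome. Of its 13 protein genes 11 were lower in batch 2 over the bleomycin-exposed groups and none higher (median -0.80). This count, and those of respiratory chain and ciliated cell genes below, are read beside the 9.82% of all genes tested that were lower. As many of the 13 were lower without the 3 libraries low in Scgb1a1. The medians were 0.09 in control, -0.40 in bleomycin, -0.95 in Ad-GFP and -1.18 in Ad-ATP12A. Cytochrome b, mt-Cytb, was at 6689 and 7117 TPM in control, 8496 and 9684 in bleomycin, 12717 and 10751 in Ad-GFP and 10447 and 8212 in Ad-ATP12A of batch 1. In batch 2 it was at 6174/7704, 7006/6207, 6374/4258 and 3766/3836 TPM. The batches overlapped in controls and in no exposed group. The log2 difference over the bleomycin-exposed groups was -0.97 (SE 0.14, adjusted p = 0.00061 in limma). Nuclear genes of the respiratory chain went the same way by less: 20 of 34 were lower and 6 higher, with a median of -0.23, and Ndufs5, a subunit of complex I, differed by -0.48 (SE 0.06, adjusted p = 0.000437). The mitochondrial chromosome as a whole took 9.06% ± 1.20 (SD, n = 8) of TPM in batch 1 and 7.21% ± 1.48 (SD, n = 8) in batch 2, which did not pass after adjustment (exact permutation test within treatments, two-sided, p = 0.037, adjusted over 5 library measures 0.0579).

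Genes of the ciliated airway cells, which sweep mucus, were lower in batch 2 as well. Of 25 tested 17 were lower and none higher over the bleomycin-exposed groups, with medians of 0.16 in control, -0.30 in bleomycin, -0.53 in Ad-GFP and -1.11 in Ad-ATP12A. Ccdc39, needed to assemble the ciliary dynein arms, was at 43.8 and 33 TPM in Ad-ATP12A of batch 1 and 9.45 and 5.49 in batch 2, and at 26.4/24.4 against 16.7/36.9 TPM in controls, where the batches overlapped. In the fit without the 3 low-Scgb1a1 libraries, fewer of the 25 ciliated cell genes were lower. Scgb3a1, a secreted product of airway cells, was at 254 and 285 TPM in controls of batch 1 and 196 and 97.3 in batch 2. It was at 211 and 184 TPM in bleomycin, 565 and 545 in Ad-GFP and 864 and 582 in Ad-ATP12A of batch 1, and at 237/151, 138/239.8 and 256/374 TPM in batch 2. Batch 2 was lower in controls and in both vector groups, and the batches overlapped in bleomycin. Agr2, a chaperone for mucins, differed by -0.92 over all treatments (SE 0.22, adjusted p = 0.0165 in limma). Retnla, a product of alternatively activated macrophages and of airway epithelium, was at 4482 to 10460.2 (median 6346) TPM in the bleomycin-exposed libraries of batch 1 and 807 to 4525 (median 2078) in those of batch 2 (over all treatments -1.57, SE 0.42, adjusted p = 0.0226), with overlap.

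Transcript length moved with the batch difference in the bleomycin-exposed groups and not in controls. Protein-coding genes were sorted by the length of their longest annotated transcript into 10 equal bins. In the shortest bin, with a median of 1012 bases, 1.6% of genes were higher and 9% lower in batch 2 over all treatments. In the longest, with a median of 8180 bases, 43.1% were higher and 0.5% lower. From the shortest to the longest bin the median log2 difference went from -0.15 to 0.46 in bleomycin, from -0.18 to 0.47 in Ad-GFP and from -0.13 to 0.26 in Ad-ATP12A, while in controls it went from 0.09 to 0.03.

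**Figure D2:**
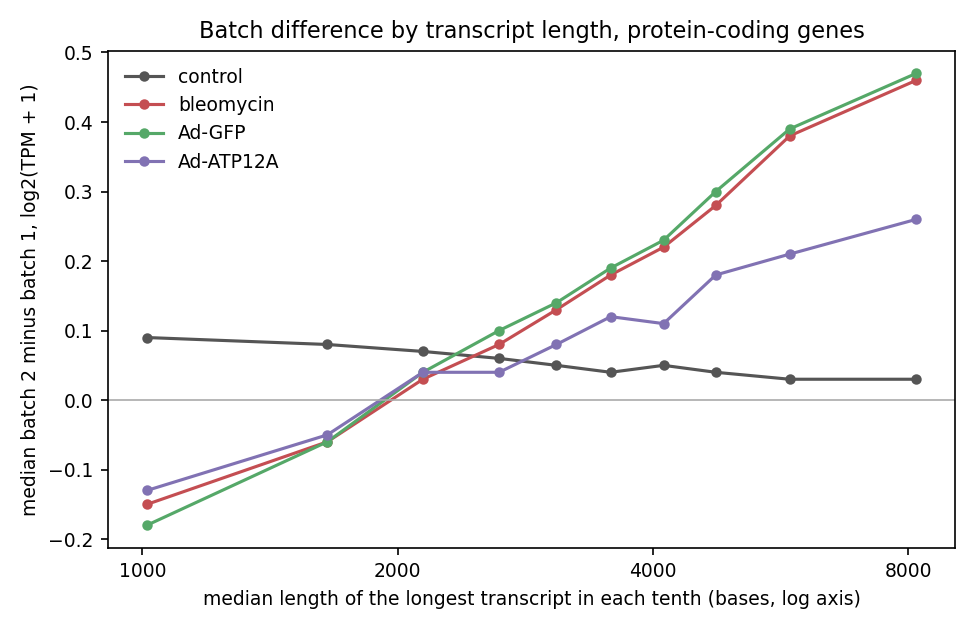
Median batch 2 minus batch 1 difference on the log2(TPM + 1) scale (y axis) of protein-coding genes in 10 bins of transcript length (x axis, bases, log axis), with one line per treatment. The 3 bleomycin-exposed groups climb from below 0 to 0.26, 0.46 and 0.47, and the control line stays between 0.03 and 0.09.

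The same contrast was taken in each library as the median of the longest bin minus that of the shortest, each gene centred on its mean over the 16 libraries. It lay between -0.402 and -0.251 in the 6 bleomycin-exposed libraries of batch 1 and between 0.047 and 0.363 in the other 10. The batch 1 controls, at 0.267 and 0.188, sat among the libraries of batch 2. The batches differed by 0.398. This value restates the bins on the same libraries and is given with no test. The part of this measure in the other results was not tested beyond the correction that follows. After each library was corrected for its own trend with length, 736 genes passed over all treatments and 4977 over the bleomycin-exposed groups. Of the 17003 genes tested, 2560 were then higher and 2417 lower over the bleomycin-exposed groups. The counts of list members that follow are read beside these, and not beside the 26.4% found without correction. After this correction 6 of 19 capillary, 4 of 11 lymphatic, 6 of 12 pericyte and 4 of 15 alveolar fibroblast genes were higher over the bleomycin-exposed groups, and 1 pericyte gene was lower. Of the matrix lists 6 of 19 collagens, 5 of 29 glycoproteins and 7 of 23 proteases and inhibitors were higher, and 1 of the last was lower. The glycoprotein count is near the share of all genes tested that were higher. In the TGF-beta list 4 of 16 were higher. Of the immune lists 5 of 21 complement genes were higher and 2 lower, 6 of 20 interferon gamma genes were higher and 7 of 23 T cell genes were higher. Lower were 11 of 13 mitochondrial, 22 of 25 ciliated cell and 16 of 34 nuclear respiratory chain genes, and 4 of the last were higher.

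The same 6 libraries were set apart by 1 antisense transcript, Gm43126. It was at 10.8 and 21.7 TPM in bleomycin, 16.6 and 20.4 in Ad-GFP and 10.1 and 9.33 in Ad-ATP12A of batch 1. All 10 other libraries listed it at 0. No other gene had at least 1 TPM in those 6 libraries and 0 in the other 10, and no gene had the reverse. It was singled out after its values were seen, and its overlap with a gene on the other strand cannot be resolved because the strand setting is not given in the sources used here.

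**Figure D3:**
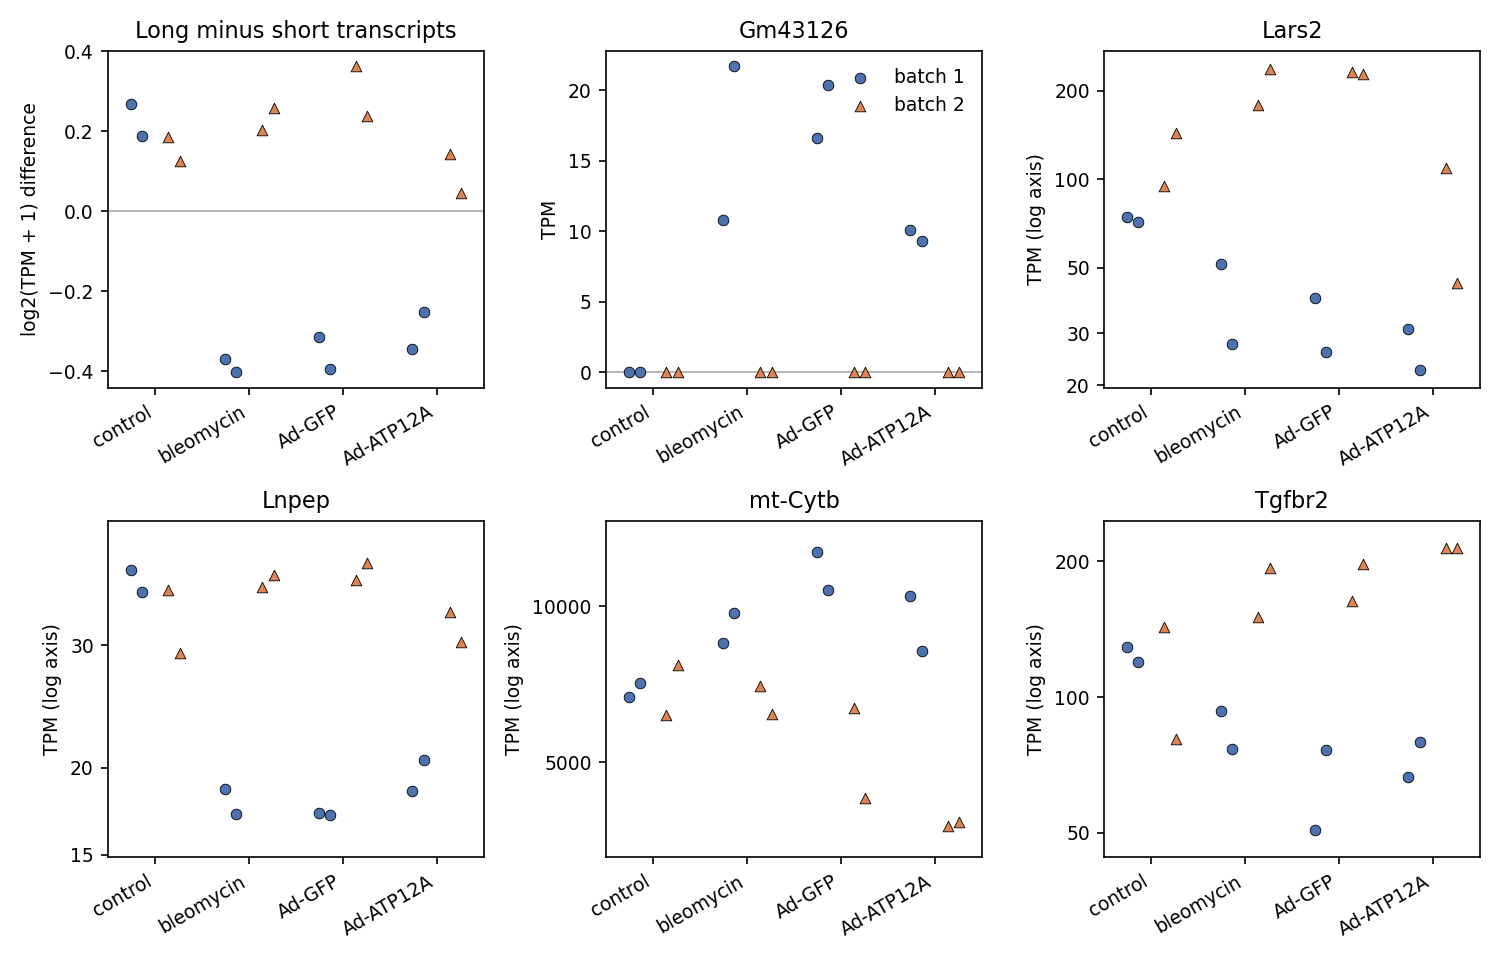
Each panel plots 1 value per library (y axis: log2 difference of long against short transcripts, or TPM) by treatment (x axis), batch 1 as circles and batch 2 as triangles. The 6 bleomycin-exposed libraries of batch 1 stand apart from the other 10 in the length contrast, Gm43126 and Lnpep, while Lars2, mt-Cytb and Tgfbr2 (log axes, as for Lnpep) separate the batches within each bleomycin-exposed group.

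Genes of the circadian clock set the controls of the 2 batches apart in a direction that was opposite, or absent, in the exposed lungs. The sequences upstream of 3 of the genes involved are shown because they hold motifs that clock proteins are known to bind. The E-box CACGTG, which reads the same on both strands, is bound by the Clock and Arntl proteins. The D-box TTATGTAA, searched on both strands, is bound by the proteins of Dbp, Tef and Hlf. The 250 bases before the first listed RefSeq start are printed 5′ to 3′ on the gene's strand, with matches in capitals, from GRCm38.p6, and the matches do not overlap. Ciart, a repressor of the clock, lies at chr3:95882229-95882478 on the minus strand. Per1 lies at chr11:69098699-69098948 on the plus strand and Per3 at chr4:151044666-151044915 on the minus strand.
Ciart: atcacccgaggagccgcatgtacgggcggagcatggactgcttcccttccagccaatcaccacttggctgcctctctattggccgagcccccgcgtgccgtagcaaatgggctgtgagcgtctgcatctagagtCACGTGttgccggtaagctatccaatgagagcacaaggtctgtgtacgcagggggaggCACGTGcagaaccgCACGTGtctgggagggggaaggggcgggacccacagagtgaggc
Per1: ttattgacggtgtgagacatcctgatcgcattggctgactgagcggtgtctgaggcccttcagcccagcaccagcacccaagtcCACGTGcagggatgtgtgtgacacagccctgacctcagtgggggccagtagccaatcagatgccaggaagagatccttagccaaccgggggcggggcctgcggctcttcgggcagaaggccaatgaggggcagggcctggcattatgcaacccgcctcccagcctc
Per3: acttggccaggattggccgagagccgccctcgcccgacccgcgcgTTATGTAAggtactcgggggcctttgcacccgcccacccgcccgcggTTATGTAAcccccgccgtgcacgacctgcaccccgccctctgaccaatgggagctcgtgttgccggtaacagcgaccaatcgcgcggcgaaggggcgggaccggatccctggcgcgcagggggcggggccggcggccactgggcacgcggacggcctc
Ciart held 3 E-boxes, Per1 held 1 and Per3 held 2 D-boxes. An E-box was found in 6.02% and a D-box in 0.82% of all 32851 promoters in the table over the same 250 bases. The 3 genes were picked for their matches, so these shares are no test of them. Among clock genes with a promoter, 5 of the 10 that passed the contrast given below held an E-box. So did 3 of the 14 that did not pass. A D-box was in 2 of those 10 and 0 of those 14. Arntl, Clock, Usp2 and Leo1 held neither motif, nor did the second listed start of Per1. A match of letters does not show binding.

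Arntl was at 16.1 and 8.75 TPM in batch 1 controls and 1.53 and 1.98 in batch 2 controls. Genes that it is known to drive were the other way round. Per2 was at 5.1 and 7.61 TPM in batch 1 controls and 28.8 and 28 in batch 2 controls, and Per3 at 9/12.4 against 41.6/47. Ciart was at 4.05/7.94 against 43.4/28.6 TPM, and Per1 at 7.31/17.4 against 68.2/57.7. The values of batch 1 and batch 2 controls did not overlap for any of these 5 genes, nor for the next pair. Dbp, a transcription factor of the clock's output, was at 28.5/57.4 against 235/171 TPM, and Usp2, a rhythmic deubiquitinase, at 5.96/6.53 against 17/21.4. None of them passed the test in controls alone, where the smallest adjusted p among these 7 genes was 0.072, for Per2 and Usp2, in limma.

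In the 12 exposed lungs Arntl and Per3 covered a narrower range than in the 4 controls. Arntl was at 5.43/3.75, 2.34/4.54 and 4.45/3.31 TPM in the bleomycin, Ad-GFP and Ad-ATP12A libraries of batch 1 and 4.67/9.21, 4.71/8.02 and 8.99/7.01 in those of batch 2. Per3 was at 17.3/20, 38.1/18.3 and 22.8/31.2 TPM in batch 1 and 23.7/14.4, 23.3/13.5 and 12.1/9.29 in batch 2. The batches overlapped in bleomycin and Ad-GFP for Per3, while in Ad-ATP12A batch 2 was lower. The batch difference in the bleomycin-exposed groups minus that in controls was tested directly, a contrast chosen after seeing the data. It passed for 1235 genes (7.26%), 802 higher (4.72%) and 433 lower (2.55%), among them 11 of the 28 tested clock genes. The difference of differences was 2.93 for Arntl (SE 0.43, adjusted p = 0.0125 in limma) and 1.59 for Clock (SE 0.17, adjusted p = 0.00567). It was -2.43 for Per2 (SE 0.32, adjusted p = 0.00993), -2.57 for Per3, -2.87 for Ciart, -1.83 for Usp2 and -2.08 for Per1 (adjusted p = 0.0491). Tef, Coq10b and Tspan4 were also lower and Leo1 higher. Nr1d1, Cry1, Hlf and Dbp did not pass, at 0.01, -0.71, -1.31 and -2.50.

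**Figure D4:**
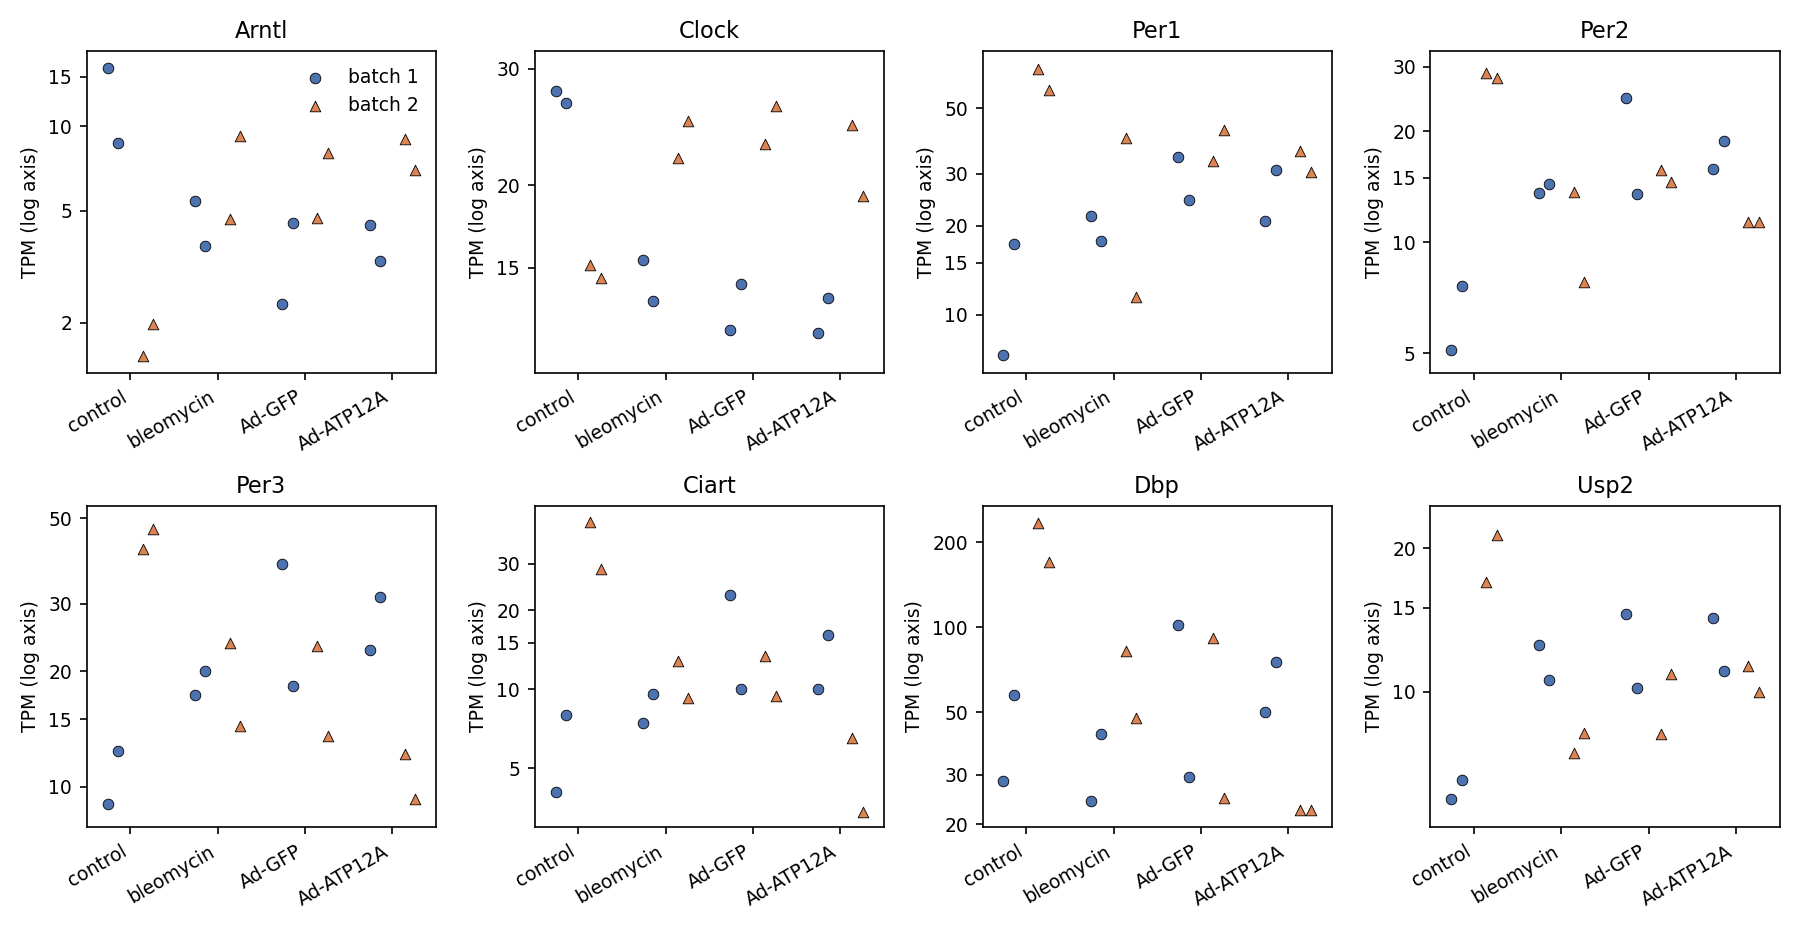
TPM (y axis, log axis) of 8 clock genes in each library by treatment (x axis), batch 1 as circles and batch 2 as triangles. In controls Arntl and Clock are lower and the 6 other genes higher in batch 2, while in the exposed groups Clock is higher in batch 2 and the batches overlap in at least 1 group for the other 7.

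This result rests on 4 control libraries. Without control b1r1 only 3 genes passed the contrast, none of them among the 11 clock genes, whose adjusted p then ran from 0.0561 to 0.235. Without control b2r2, 3 of the 11 passed, and without the 3 libraries low in Scgb1a1 8 did. The 14 tested glucocorticoid-induced genes had a median batch difference of 0.50 in controls, against 0.06 for all genes tested. In the contrast 1 of the 14 was higher and 1, Per1, lower, beside 4.72% and 2.55% of all genes tested. Fkbp5, another member of this list, did not separate the controls. It was at 7.19 and 15.2 TPM in batch 1 controls and 13.2 and 12.9 in batch 2 controls, and was high in 3 libraries of batch 2, Ad-GFP b2r2 at 138 TPM and Ad-ATP12A at 138 and 124 TPM, against 7.19 to 36.2 TPM in batch 1. Sftpc was lowest in the same 3 libraries, at 4644, 3965 and 7987 TPM.

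The batch difference of platelet genes also differed between controls and exposed lungs. Of 12 platelet markers 7 passed the same contrast, all lower, and the list's median batch difference was 1.26 in control, -0.02 in bleomycin, -1.07 in Ad-GFP and -0.96 in Ad-ATP12A. Itga2b, the platelet fibrinogen receptor chain, was at 8.03 and 19.3 TPM in batch 1 controls and 46.1 and 39.6 in batch 2 controls. In the exposed groups it was at 13.2/9.27, 31.9/20.9 and 20/13.9 TPM in batch 1 and 14.4/8.26, 13.9/9.47 and 8.04/8.08 in batch 2 (contrast -2.39, SE 0.44, adjusted p = 0.0189 in limma). The batches overlapped in bleomycin only. None of the 7 passed without the 3 libraries low in Scgb1a1. Summed TPM of the platelet list was 154 to 376 in batch 1 controls and 551 to 686 in batch 2 controls. The beta globin gene Hbb-bs, made in red blood cells, was at 15789 and 17131 TPM in batch 1 controls and 20454 and 7122 in batch 2 controls, which overlapped. The blood content of each lung was not tested.

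Whether bleomycin acted alike in the 2 batches was asked next. Against the controls of its own batch, bleomycin changed 4075 genes in batch 1 (24%), 2161 up (12.7%) and 1914 down (11.3%), and 698 in batch 2 (4.11%), 581 up (3.42%) and 117 down (0.688%). Of these 410 were called in both, which is 10.1% of the batch 1 genes and 58.7% of the batch 2 genes, and 400 had the same sign. Pearson's r between the 2 effects over 17003 genes was 0.46. The 2 effects share no library. The batch 2 count rested on 1 library, since 1 gene passed without bleomycin b2r2 and 57 without the 3 libraries low in Scgb1a1, and the batch 1 count was 678 without control b1r1. The share of rises in batch 2, 83.2%, was 58.7% after quantile normalization and 64.5% after median-ratio scaling.

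Collagen, cell cycle and p53 genes held members that rose in each batch, beside 12.7% of all genes tested in batch 1 and 3.42% in batch 2. Collagens had a median log2 change of 1.46 in batch 1, with 11 of 19 up, and 1.44 in batch 2, with 8 of 19 up. Cell cycle genes had 1.80 (24 of 26 up) and 1.77 (20 of 26 up), and p53 targets 0.81 (12 of 18 up) and 0.80 (10 of 18 up). Col3a1 went from 99.4 and 109.6 TPM in control to 822 and 648 in batch 1 and from 99.7 and 55.3 to 557 and 913 in batch 2, changes of 2.79 (SE 0.40, adjusted p = 0.0032 in limma) and 3.25 (SE 0.40, adjusted p = 0.00904). Cdkn1a, the p53 target that halts the cell cycle, changed by 2.01 and 2.28, and Top2a, made in dividing cells, by 2.16 and 2.20. No member of the 3 lists passed the test of the difference between batches, which does not show that the effects were equal, and the difference of the medians was not tested. The counts in batch 2 rest on bleomycin b2r2, without which none of the 96 named genes that passed there remained.

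Some of the lists with genes that fell with bleomycin in batch 1 are given beside the share of all genes tested that fell. That share was 11.3% in batch 1 and 0.688% in batch 2, so a count of 0 in batch 2 is near its background. Cardiac muscle genes, which come from heart tissue or from the muscle of pulmonary veins, had a median change of -2.34 in batch 1 with 17 of 20 down and -0.55 in batch 2 with none down. Myh6, the atrial myosin, was at 80.3 and 60 TPM in control and 9.87 and 12.5 in bleomycin of batch 1, and at 40.3/96 and 69.7/26.5 in batch 2. Red blood cell genes had medians of -1.91 (8 of 11 down) and -1.15 (0 of 11), B cell genes -1.16 (11 of 13 down) and -0.35 (1 of 13), and capillary markers -0.95 (5 of 19 down) and -0.19 (0 of 19). Cd79a, part of the B cell receptor, went from 39.4 and 48.4 to 15.5 and 19.1 TPM in batch 1 and from 60.3 and 57.7 to 40.8 and 39.6 in batch 2. Surfactant and alveolar type 2 genes had medians of -1.07 (8 of 19 down) and 0.22 (0 of 19). Not every list fell by less in batch 2. Mesothelial genes had medians of -0.65 (6 of 13 down, 2 up) and -0.73 (4 of 13 down). Xenobiotic and Ahr target genes had -0.77 (5 of 14 down) and -1.02 (2 of 14 down). No member of any list in this paragraph passed the test of the difference between batches.

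**Figure D5:**
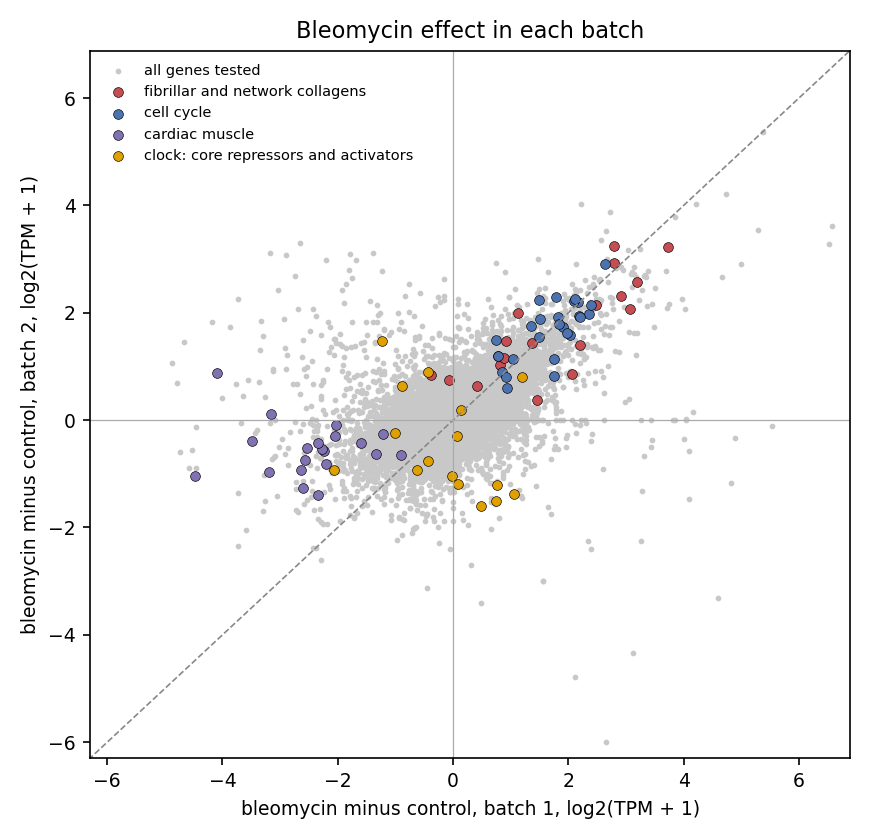
Change with bleomycin on the log2(TPM + 1) scale in batch 1 (x axis) and batch 2 (y axis) for each of 17003 genes, with 4 lists in colour and the line of equal change dashed. Collagens have medians of 1.46 in batch 1 and 1.44 in batch 2 and cell cycle genes 1.80 and 1.77, cardiac muscle genes have medians of -2.34 in batch 1 and -0.55 in batch 2, and core clock genes scatter on both sides of the line.

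Tested directly, the bleomycin effect differed between batches in 11 genes (0.0647%), 8 higher (0.0471%) and 3 lower (0.0176%) in batch 2, with 3230 at an unadjusted p below 0.05. Those with a gene symbol were Mob1b, Clock, Ahcyl2, Lnpep, Fam124b, Usp2 and Med13, and the others were predicted transcripts, Gm43126 among them. Lnpep, a membrane aminopeptidase, was at 38.4 and 35.8 TPM in control and 18.6 and 17.1 in bleomycin of batch 1, but 36/29.2 and 36.3/37.9 in batch 2 (difference 1.20, SE 0.17, adjusted p = 0.0444 in limma). Med13, a subunit of the Mediator complex, was in control and bleomycin at 22.1/20.8 and 11.6/11.4 TPM in batch 1 and 19.4/18.7 and 23.6/25.5 in batch 2 (difference 1.19, SE 0.18, adjusted p = 0.049). In both genes bleomycin of batch 1 lay below the other 3 groups. Ahcyl2, a regulator of bicarbonate transport, was in control and bleomycin at 67.7/51.6 and 15.5/15.9 TPM in batch 1 and 33/24.1 and 35/32.4 in batch 2, so that its controls differed too. The longest transcripts of Mob1b, Clock, Ahcyl2, Lnpep, Fam124b, Usp2 and Med13 have 8967, 9744, 5155, 12052, 2855, 3867 and 10546 bases, against a median of 2990 over all genes tested. After the correction for length 3 of the 7 named genes passed. None of the 7 passed without the 3 libraries low in Scgb1a1 or with a term for Xist, and the count of genes ran from 1 without control b1r1 to 529 without control b2r1.

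No gene passed in limma for the effect of Ad-GFP against bleomycin by batch (0% called), with 538 at an unadjusted p below 0.05, nor for Ad-ATP12A against Ad-GFP by batch, with 1070 (8 genes passed without the 3 libraries low in Scgb1a1). Within each batch Ad-GFP changed no gene against bleomycin, with 389 and 568 at an unadjusted p below 0.05, and Ad-ATP12A changed 1 gene against Ad-GFP (0.00588%), Atp12a itself. Atp12a was at 5.13 and 2.96 TPM in Ad-ATP12A of batch 1 and 29 and 25.7 in batch 2, and at most 0.2 TPM in the other 12 libraries. Both batches thus show Atp12a in the lungs given Ad-ATP12A, and it was higher in batch 2 by 2.52 on the log2(TPM + 1) scale (adjusted p = 0.00136 in limma). Whether these reads came from the vector or from the mouse's own gene was not tested. As an interaction with Ad-GFP this difference was 2.47 (SE 0.31, adjusted p = 0.102). The next genes by p with a symbol included H2-Ob, which controls peptide loading of MHC class II (-2.50), the protease inhibitor Serpinb1a (-1.34) and the dendritic cell receptor Flt3 (-1.57), each with an adjusted p of 0.578. H2-Ob was at 22.3 and 8.54 TPM in Ad-GFP and 42 and 34.2 in Ad-ATP12A of batch 1, and at 23.8/18.9 and 8.79/9.64 in batch 2.

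A test of any treatment effect by batch, over the 3 interactions at once, passed for 12 genes (0.0706%). Those with a symbol were Atp12a, Pcyox1, Clock, Lpgat1, Zfp106 and Lnpep, and the other 6 were predicted transcripts or pseudogenes. Pcyox1, which breaks down prenylated cysteine, was at 55.8/50.7, 39.3/33.3, 29.4/34.9 and 26.4/30.7 TPM in control, bleomycin, Ad-GFP and Ad-ATP12A of batch 1. In batch 2 it was at 43.9/38, 58.5/60.1, 60.4/65 and 69.5/75.2 TPM, lower than batch 1 in controls and higher in each exposed group. Zfp106, an RNA-binding zinc finger protein, showed the low values of the exposed batch 1 lungs, 27.5 to 32.2 TPM, against 47.2 to 70.7 in the other 10 libraries. Without the 3 libraries low in Scgb1a1 468 genes passed this test, and without control b1r1 none did.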

How the data were processed

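Total lung RNA of 16 libraries was measured by RNA-seq. The submitters' processing notes name STAR, RSEM and GRCm39; versions, annotation and strand setting are not given in the sources used here. The deposited values are log2(TPM + 1), made by the authors, for 53647 identifiers. They were turned back to TPM, and libraries then summed to 999999.12 to 1000000.82. Symbols and transcript lengths came from GENCODE M21 (GRCm38) by identifier, which matched 52093 and left 1554 unmatched. Batch and treatment came from the sample titles.

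Genes at 1 TPM or more in at least 4 libraries were kept. Tests used the deposited log2 values, so fold changes of low genes are understated. limma 3.58.1 (R 4.3.3, trend) was fitted with treatment and batch as terms, and with 8 treatment and batch means for effects within a treatment or batch. Fits were tested on simulated data. Library measures used an exact permutation test. Figures used matplotlib 3.10.9 in Python 3.11.15.

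Named genes were the 15 largest rises and falls with 1 sign in the 4 treatments, up to 4 members of each list by smallest p, members that did not pass, and up to 10 genes per interaction; predicted genes were counted but seldom named. Members and lists were chosen with earlier results of these data known. The average over exposed groups, its contrast with controls and the length correction were chosen after seeing the data. Replicate numbers did not pair libraries.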

Additional observations from a re-analysis of the deposited data

Results flagged for a closer look

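The bleomycin effect differed between batches in 11 genes and any treatment effect in 12, and the batch difference in exposed lungs differed from that in controls in 1235 genes, each by limma's test of the difference itself. For the bleomycin effect, batch 2 minus batch 1 was 1.48 for Mob1b, 1.51 for Clock, 2.09 for Ahcyl2, 1.20 for Lnpep, 2.80 for Fam124b, -1.98 for Usp2 and 1.19 for Med13 on the log2(TPM + 1) scale.

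For any treatment effect, the adjusted p in limma was 0.0324 for Atp12a, Pcyox1 and Clock, and 0.0464 for Lpgat1, Zfp106 and Lnpep.

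Among clock genes, the batch difference in exposed lungs minus that in controls was 2.93 for Arntl, 1.59 for Clock and 1.05 for Leo1. It was -2.87 for Ciart, -2.57 for Per3, -2.43 for Per2, -2.08 for Per1, -1.83 for Usp2, -1.56 for Tef, -1.40 for Tspan4 and -1.19 for Coq10b.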

How the results depend on the processing

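Genes past the threshold over all treatments, 3141, were 1875 without a filter, 1923 with median-ratio scaling, 5018 with array weights, 736 with length correction, 5555 in the 12 bleomycin-exposed libraries alone and 0 without the 3 libraries low in Scgb1a1. For the bleomycin effect by batch, 11 became 33 without a filter, 153 with a mean of at least 5 TPM, 170 with quantile normalization, 184 with median-ratio scaling, 504 with array weights, 1 with a term for Xist and 22 without those 3 libraries. For any treatment effect by batch, 12 became 74 without a filter, 29, 74, 62 and 145 under the next 4 of these settings in turn, 468 without the 3 libraries and 6 with length correction. The Ad-GFP effect by batch gave 21 genes without a filter and 1 with the Xist term, and the Ad-ATP12A effect 17 without a filter and 8 without the 3 libraries. Bleomycin against control in batch 1 gave 7920 with array weights and 2696 with the Xist term, and in batch 2 180 without a filter, 210 with array weights, 1074 with the Xist term and 57 without the 3 libraries. The contrast of exposed with control gave 685 without a filter. The share of rises in this contrast, 64.9%, was 50.6% with quantile normalization and 49.6% with length correction; over all treatments length correction gave 60.3%, and for bleomycin in batch 2 66.6%.

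Leaving out 1 library at a time gave 1602 to 4943 genes over all treatments, 1 to 529 for the bleomycin effect by batch, 0 to 5 for the Ad-ATP12A effect, 0 to 318 for any effect, 678 to 4575 and 1 to 1027 for bleomycin in batches 1 and 2, 3 to 1818 for exposed against control and 4513 to 6290 over the exposed groups. The batch difference in genes at 1 TPM ran from -24.8 to 99.5, the former without Ad-GFP b1r2. The share of the 10 highest genes ran from -4.53 to -2.08 percentage points and was -1.27 without the 3 libraries. The mitochondrial share ran from -2.08 to -1.62 and was -1.31 without them. Col4a4 went to -0.005 with length correction. The cause was not tested.

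With the replicate number as a block, 2725 genes passed over all treatments and 7 for the bleomycin effect by batch. Deviations of same-numbered libraries correlated at -0.30 to 0.41 over 28 pairs of groups, 4 of them above 0.1, so numbers were not taken as pairs.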
